A study of Mus musculus with 2 samples.

Results

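Integrins are cell surface receptors made of 1 alpha and 1 beta chain, by which lymphocytes hold to other cells and to matrix. The chains described here are 10 genes: the alpha chains Itgae, Itgal, Itga4, Itga6 and Itgav and the beta chains Itgb1, Itgb2, Itgb3, Itgb7 and Itgb8. All probe sets that the platform annotation pairs with exactly 1 of these symbols were taken, which gave 27 of the 45101 probe sets on the array, and no probe set that several symbols share held a member. A probe set is a group of short array probes that read 1 transcript, and a gene can have several.

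RNA came from regulatory T cells (Treg), the CD4 T cells that restrain immune responses, taken by FACS from spleens and lymph nodes of mice, all female and 6 to 8 weeks old. There were 2 arrays, 1 per genotype. Both donors carried Cre recombinase at a Foxp3 allele, which the labels write as Foxp3 Cre/wtS and the design text of the series also as Foxp3 Cre/wt. They differed at Stat3, which carries signals of cytokines such as IL-6 and IL-10 to the nucleus: Stat3 fl/wt donors had a single loxP-flanked allele and Stat3 fl/fl donors had both alleles flanked. Foxp3 is X-linked, so that in such females Cre acts only in Treg using the Cre-bearing X chromosome. The labels do not say whether those cells were selected or how many mice were pooled. The targeted gene did not separate the arrays: the 3 measured Stat3 probe sets differed by -0.0083, -0.019 and -0.083 (fl/fl minus fl/wt, log2). Where they lie relative to the flanked exons is not known here, so they check nothing, and directions rest on the labels. A single array stands for each genotype, so that the differences below have no replicate error and no test, and the number of arrays limits the precision.

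Some beta chains can join several alpha chains, and the pair decides the ligand. Itgal with Itgb2 forms LFA-1, the receptor for ICAM proteins that steadies contacts with antigen-presenting cells. Itga4 joins Itgb1 to bind VCAM-1 or Itgb7 to bind the gut addressin MAdCAM-1, and Itgae joins Itgb7 to bind E-cadherin on epithelium. Itga6 with Itgb1 binds laminin, Itgav with Itgb3 binds vitronectin, and Itgav with Itgb8 releases active TGF-beta from its latent complex, a step that Treg can carry out.

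Levels are the authors' log2 values after GCRMA, a method that corrects background from probe sequence and normalises arrays to each other. Values under log2 5 have no order among themselves, and a probe set was called measured where it reached log2 5 in at least 1 array. Of the 27 integrin probe sets, 19 were measured, and none of them was on opposite sides of log2 5 in the 2 arrays. The other 8 lay between log2 1.72 and 4.06: 3 of Itgav, 3 of Itgb1, 1 of Itga4 and 1 of Itgb3. Each of the 10 genes kept at least 1 measured probe set. Differences are fl/fl minus fl/wt on the log2 scale.

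All 10 integrin genes were read in both arrays, and none of their 19 measured probe sets differed by 1.5-fold or even by 0.25 on the log2 scale. Among all 16761 measured probe sets of a single gene, 0.752% were past 1.5-fold and 7.51% past 0.25. Of the integrin probe sets 9 were higher and 10 lower in fl/fl, where 48.8% of all measured probe sets were higher. The differences ran from -0.17 to 0.20 with a median of -0.0036, beside a median of -0.0024 over all measured probe sets, and the sign of the integrin median depended on the scaling and the floor. Their median size, taken without sign, was 0.063, beside 0.058 over all. A difference of at least 0.1 was seen for 6 of the 19, or 31.6%, beside 30.8% of all measured probe sets. The share of integrin probe sets past 0.1 was thus near that of the array as a whole.

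**Figure D1:**
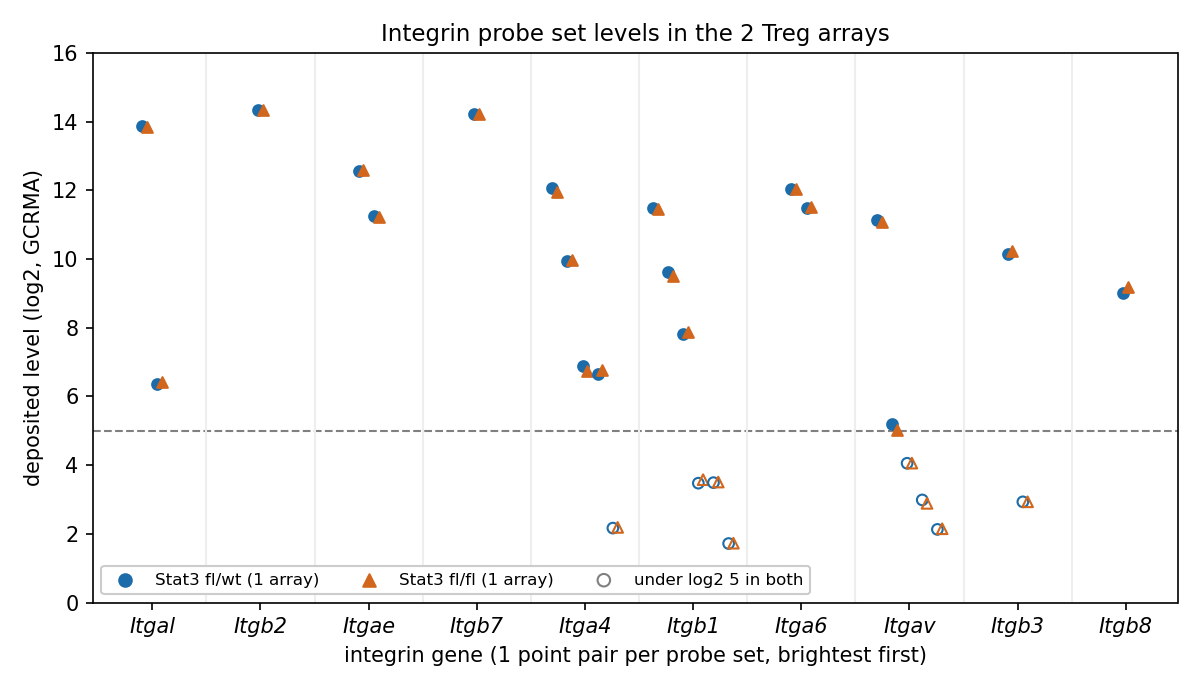
Deposited log2 level (vertical axis) of the 27 probe sets of the 10 integrin genes, with circles for the fl/wt array, triangles for the fl/fl array and open symbols for probe sets under log2 5 in both. Circle and triangle lie nearly on each other for every probe set, while the 2 measured probe sets of Itgal lie 7.53 apart in fl/wt.

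The chains of LFA-1 were among the brightest integrin probe sets, and both were nearly equal in the 2 arrays. Itgb2, the beta chain of leukocytes, was read by 1 probe set (1450678_at) at 14.35 in the fl/wt array and 14.35 in the fl/fl array, a difference of -0.0036. The brighter Itgal probe set (1435560_at) stood at 13.88 in the fl/wt array and 13.85 in the fl/fl array, a difference of -0.034. The other Itgal probe set (1425367_at) stood at 6.36 and 6.43, higher in fl/fl by 0.077. The pair of Itgal probe sets thus went opposite ways, and both differences were small beside the gap in level between them.

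Itgae encodes CD103, a chain found on a part of Treg and on lymphocytes within epithelium. Its brighter probe set (1447541_s_at) read 12.57 in the fl/wt array and 12.59 in the fl/fl array, and the other (1449216_at) 11.27 and 11.24. These differences, 0.019 and -0.028, also had opposite signs. The suffix of the brighter one marks probes that can be shared with other transcripts. Itgb7, the beta partner of both Itgae and Itga4, had 1 probe set (1418741_at), at 14.24 in the fl/wt array and 14.23 in the fl/fl array. It differed by -0.0083.

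Itga4, the chain shared by the VCAM-1 and MAdCAM-1 receptors, had the widest range of differences across its own probe sets, 0.29. Its brightest probe set (1436037_at) read 12.07 in the fl/wt array and 11.94 in the fl/fl array, a difference of -0.12, or 0.917 times the fl/wt level. The next (1421194_at) read 9.95 and 9.97, a difference of 0.017. The third (1427615_at) was lower in fl/fl at 6.73 against 6.90, a difference of -0.17. The fourth (1456498_at) was higher at 6.77 against 6.64, a difference of 0.12. With 2 probe sets higher and 2 lower, the Itga4 probe sets gave no common direction. Differences grew as levels fell: at a mean level of log2 11 or more, 7.63% of all measured probe sets differed by at least 0.1, against 30.4% between 8 and 11 and 54.7% between 5 and 8. The brightest Itga4 probe set was the only 1 of 10 integrin probe sets at or above 11 to do so.

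Itgb1, the common beta chain of matrix receptors, had 3 measured probe sets. The brightest (1426918_at) stood at 11.49 in the fl/wt array and 11.46 in the fl/fl array, a difference of -0.028. The next (1452545_a_at) differed by -0.13, from 9.64 to 9.51, and the dimmest (1427771_x_at) by 0.063, from 7.82 to 7.89. The suffixes of the latter pair mark probes shared between transcripts. Itga6, the laminin receptor chain, had its 2 probe sets higher in fl/fl by 0.0055 and 0.014. The brighter (1422445_at) read 12.05 in both arrays, and the other (1422444_at) 11.50 in the fl/wt array and 11.51 in the fl/fl array.

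The alphaV group held the largest integrin difference. Itgb8, the chain of the TGF-beta activating receptor, was read by 1 probe set (1436223_at), at 9.0 in the fl/wt array and 9.20 in the fl/fl array. It was higher in fl/fl by 0.20, or 1.15-fold. Of all measured probe sets with a mean level of 8 to 11, 30.4% differed by at least 0.1 and 3.33% by at least 0.25, so the Itgb8 value lay between those marks, and no second probe set reads it. Itgb3, known from platelets and from alphaV receptors, differed by 0.096 in its measured probe set (1455257_at), which read 10.14 in the fl/wt array and 10.24 in the fl/fl array. Itgav, the partner of both, went the other way: its bright probe set (1452784_at) read 11.14 in the fl/wt array and 11.07 in the fl/fl array, a difference of -0.067. A dim Itgav probe set (1421198_at), just above log2 5 at 5.21 and 5.04, differed by -0.17.

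**Figure D2:**
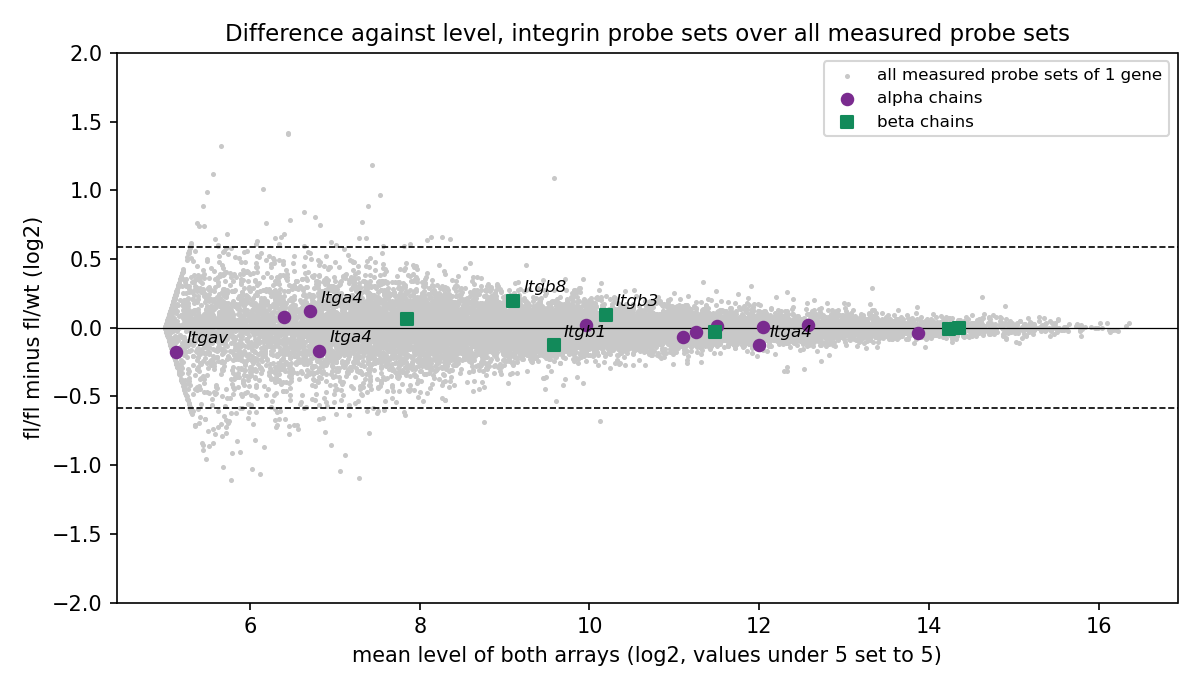
Difference fl/fl minus fl/wt (log2, vertical axis) against mean level of both arrays (log2, horizontal axis), with alpha chains as purple circles, beta chains as green squares, and all measured probe sets of a single gene in grey. All 19 integrin points lie well inside the dashed lines at 1.5-fold, within a grey cloud that widens toward low levels.

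Across the 6 genes with several measured probe sets, 4 had probe sets in both directions (Itga4, Itgae, Itgal and Itgb1). Itga6 had both higher and Itgav both lower in fl/fl. Read by the brightest probe set, 4 genes were higher and 6 lower, where 47.5% of 9773 measured genes were higher. The sign reversed with median centring for Itga6 (-0.026) and Itgae (-0.012), with quantile normalisation for Itgb2 (0.0068), and as the median of measured probe sets for Itgal (0.022) and Itgae (-0.0044). Itga4 and Itgb1 kept their sign by that median (-0.054 and -0.028), and reversed only where probe sets under log2 5 entered it (0.017 and 0.013). For Itgae it also reversed without probe sets of shared suffix (-0.028). Among alpha chains 6 probe sets were higher and as many lower (median -0.011), and among beta chains 3 were higher and 4 lower (median -0.0036). Neither kind of chain had a common direction.

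Levels of partner chains can be set side by side only with care, since probe sets differ in how strongly they bind. Itgal shows this, with its pair of probe sets 7.53 apart in fl/wt, and over 4310 genes with several measured probe sets the median gap between the brightest and the dimmest was 2.59 in fl/wt. An order of partners is therefore given only where each measured probe set of 1 chain lay above each of the other in both arrays, and it orders signals, not numbers of transcripts. This held for 4 of 8 pairs (6 with a floor of log2 6 and 5 without probe sets of shared suffix). The beta chain read above the alpha chain for Itgal with Itgb2, Itgae with Itgb7 and Itga4 with Itgb7. By brightest probe set the gaps in fl/wt were 0.47, 1.67 and 2.17, and in fl/fl 0.50, 1.64 and 2.29. Of these chains Itgb2 and Itgb7 have a single probe set each. Itga6 read above Itgb1, and between their brightest probe sets the gap was 0.56 in the fl/wt array and 0.59 in the fl/fl array. The dimmer Itga6 probe set (1422444_at) barely cleared the brightest of Itgb1 (1426918_at). The levels were 11.497 against 11.489 (fl/wt array) and 11.511 against 11.462 (fl/fl array), so this order rests on a near tie.

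For the other 4 pairs, Itga4 with Itgb1 and Itgav with Itgb1, Itgb3 or Itgb8, the probe sets of the partners overlapped and no order is given. Itgav had both a bright and a dim probe set, which lay on either side of the Itgb3 and Itgb8 probe sets. What can be set side by side for every pair is the difference between the arrays, each within its own probe set. By brightest probe set it was 0.20 for Itgb8 and -0.067 for Itgav, and these lay 0.27 apart, more than in any other of the 8 pairs. Itgb3 and Itgav lay 0.16 apart. In the remaining 6 pairs the differences of the partners lay 0.028 to 0.12 apart.

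Promoter windows from RefSeq (GRCm38.p6) were at hand for 5 members: Itga4, Itgav, Itgb1, Itgb7 and Itgb8. The 250 bases upstream of the start are shown for the 2 genes at the ends of the range of differences by brightest probe set, Itgb8 and Itga4, with any match to the motifs searched in capitals. Itgb8 lies on the minus strand (chr12:119238277-119238526) and Itga4 on the plus strand (chr2:79255176-79255425), both printed 5′ to 3′ along the gene.
Itgb8: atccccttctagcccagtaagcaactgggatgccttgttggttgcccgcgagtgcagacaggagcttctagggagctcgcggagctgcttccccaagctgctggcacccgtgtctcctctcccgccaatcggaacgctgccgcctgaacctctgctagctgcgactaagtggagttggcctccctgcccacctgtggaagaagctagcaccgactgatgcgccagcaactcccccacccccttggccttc
Itga4: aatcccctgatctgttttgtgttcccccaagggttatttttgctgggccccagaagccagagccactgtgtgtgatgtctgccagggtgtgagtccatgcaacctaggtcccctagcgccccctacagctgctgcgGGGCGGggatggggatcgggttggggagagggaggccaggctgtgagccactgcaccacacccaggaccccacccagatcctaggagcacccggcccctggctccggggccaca
The letters TTCNNNGAA, the core bound by Stat proteins, were searched on both strands and were found in none of the 5 windows, where 7.02% of 32851 windows hold them. The cAMP response letters TGACGTCA were in none of the 5 either (1.55% of all windows). The GC box GGGCGG occurred once in Itga4 and once in Itgb1 (32.7% of all windows). The motifs do not overlap here. The Itgb8 window held 12 CpG and the Itga4 window 6, beside a median of 6 over all windows.

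The remaining chains of the family were mostly under log2 5. Of 18 other chains listed, 16 had a probe set of a single gene and 3 were measured. Itgb5, an alphaV partner, read 10.38 in the fl/wt array and 10.27 in the fl/fl array by its brightest probe set, which is of the shared-suffix type. Of its 4 measured probe sets 2 were higher in fl/fl, and without shared suffixes its difference was 0.19 in place of -0.11. Itgax, the CD11c chain of dendritic cells and some macrophages, read 6.81 and 7.01, a difference of 0.20. Itga9 differed by -0.055. Itgam, the myeloid partner of Itgb2, read 2.36 and 2.37, and the platelet chain Itga2b, a partner of Itgb3, 3.81 and 3.82.

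Among genes that act with integrins, 1 of 5 measured ligands was past 1.5-fold. In each of the other lists, of 3 to 14 measured genes, 0 were past it. Of all 9773 measured genes 0.645% were past it. The ligand was Lamc1, a laminin chain, at 6.10 in the fl/wt array and 5.33 in the fl/fl array, a difference of -0.77. Raising the floor to log2 6 left -0.10 of it, and adding 32 on the linear scale left -0.48. Of the 5 measured ligands all were lower in fl/fl (4 of 5 with quantile normalisation), with a median of -0.023 beside -0.0045 over all measured genes, of which 52.5% were lower. They included the LFA-1 ligands Icam1 (-0.035) and Icam2 (-0.023), and F11r (-0.015). Vcam1 was the brightest ligand, at 14.87 in the fl/wt array and 14.86 in the fl/fl array. Which of the sampled cells gave this signal was not tested. The ligands Cdh1, Madcam1, Fn1 and Vtn, at 1.74 to 3.05, lay under log2 5 in both arrays. The 14 measured cytoplasmic activators, which switch integrins on from within, split into 7 higher and 7 lower, and their median was 0.00043. With median centring the split was 2 higher and 12 lower. Apbb1ip, which links Rap1 to talin, differed by -0.19, with 1 of its 2 measured probe sets higher and 1 lower. The Rap1 exchange factor Rasgrp2 differed by -0.16, with 4 of 4 probe sets lower (-0.033 without probe sets of shared suffix). Cib1 differed by -0.063, and Stk4 by 0.063, with 1 of its 3 measured probe sets higher. The 7 genes listed as inhibitors of integrin activation had 3 higher and 4 lower (1 and 6 with median centring, 4 and 2 without shared suffixes). The adaptor Dok1 was at -0.20, Sipa1l1 at -0.070, Itgb1bp1 at -0.032 and Sipa1 at 0.039. Among the higher was Slfn2 (0.0064), whose action on integrins was not established here. Of 12 measured kinases and scaffolds 3 were higher and 9 lower (1 and 11 with median centring, 4 and 6 without shared suffixes). Their median was -0.047. The kinases Syk and Src differed by -0.11 and -0.091, and Lpxn and Actn4 by -0.11 and -0.079. Of 8 measured surface partners 1 was higher and 7 lower, at a median of -0.041 (0 and 8 with median centring). Those of largest difference were Cd37 (-0.067), Cd82 (-0.054), Cd151 (-0.052) and Cd81 (-0.050).

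Genes that handle latent TGF-beta, the substrate of the Itgav and Itgb8 pair, were listed together with TGF-beta receptors. Of the 6 measured members of this list 4 were higher (3 of 6 with median centring), where 47.5% of all measured genes were higher. Their median was 0.042. The ligand Tgfb1 differed by -0.082, with both its probe sets lower, and the protease Furin, which cleaves its precursor, by 0.082. The receptors Tgfbr1 and Tgfbr3 differed by 0.084 and 0.054. Of 12 measured transcription factors listed as acting on integrin genes, 5 were higher and 7 lower (median -0.010), and with quantile normalisation 6 and 6. Runx3, which acts on Itgae in T cells, differed by -0.20 and Ski by -0.14, while Zeb2 differed by 0.11, with 3 of 3 probe sets higher, and Eomes by 0.076.

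**Figure D3:**
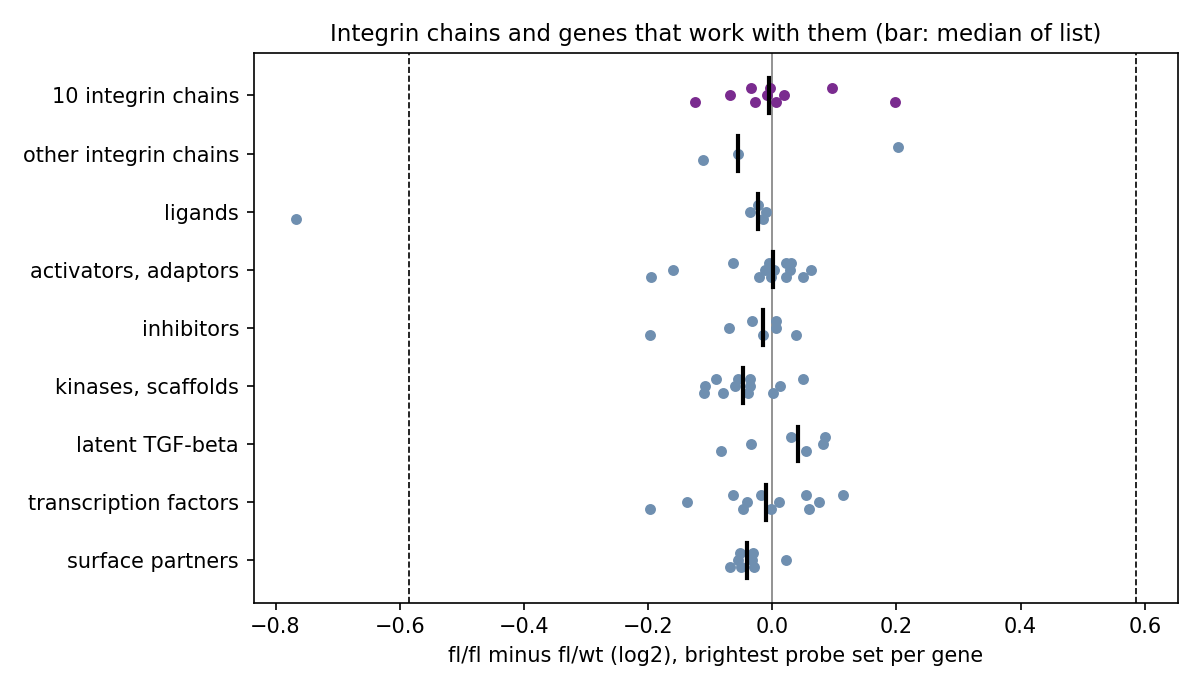
Difference fl/fl minus fl/wt (log2, horizontal axis) by brightest probe set for the 10 integrin chains and for 8 lists of genes that act with them, 1 point per measured gene, with a black bar at each list's median and dashed lines at 1.5-fold. Lamc1 among the ligands, at -0.77, is the single point outside the dashed lines.

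Markers of the sorted cell type were bright, as were those of macrophages. Of 10 Treg markers 9 were measured, 3 higher and 6 lower in fl/fl (2 and 7 with median centring), where 47.5% of all measured genes were higher. The IL-2 receptor chain Il2ra read 13.45 in the fl/wt array and 13.35 in the fl/fl array. Ikzf4 and Cd3e were higher in fl/fl, by 0.096 and 0.088. Foxp3 itself lay under log2 5, at 4.09 and 3.52. Of 12 myeloid markers 8 were measured, between 10.56 and 13.99 in fl/wt and between 10.51 and 14.00 in fl/fl, with Lyz2 at 12.59 and 12.52 and Cd68 at 12.67 and 12.62. The summed level of that list was log2 15.92 in the fl/wt array and 15.91 in the fl/fl array, and the granulocyte genes S100a8, S100a9 and Mpo were under log2 3 in both. Macrophages also use Itgb2, Itgav, Itga4, Itgb1 and Itgb5. How much of each integrin signal, or of the Vcam1 and Syk signals, came from such cells was not tested. In bulk samples fewer cells of a type and less RNA per cell cannot be told apart.

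Platelet markers bear on Itgb3. Of 9 listed, 2 were measured, Pf4 at 5.80 in the fl/wt array and 5.99 in the fl/fl array and Clec1b at 10.21 and 10.17, and the defining chain Itga2b with Ppbp, Gp9, Gp1bb, Gp5, Gp6 and Treml1 lay under log2 5 in both arrays. The summed level was log2 10.32 and 10.29. Of the 8 dendritic markers with a probe set, 3 were measured: Itgax (0.20), Batf3 (0.18) and Ccr9 (0.030). All 3 were higher in fl/fl, or 2 of 3 with median centring, where 47.5% of all measured genes were higher. Itgax lay between 5 and 8, where 54.7% of all measured probe sets differed by at least 0.1. Flt3, Zbtb46, Xcr1, Siglech and Cd209a lay under log2 5 in both arrays. The summed level of the list was log2 11.33 in the fl/wt array and 11.38 in the fl/fl array, with Ccr9 alone at 11.04 and 11.07. The part of dendritic cells in the Itgb8 and Itgae values was not tested. B cell markers had 4 of 7 measured, with summed levels of log2 10.76 and 10.69, and CD8 and NK markers 5 of 7, with 11.28 and 11.29. Red cell markers had 2 of 4 measured, both lower in fl/fl, where 52.5% of all measured genes were lower, and summed levels of 8.06 and 7.44. The erythropoietin receptor Epor among them was past 1.5-fold, at -0.86, where 0.645% of all measured genes were past it. Of the 8 endothelial and stromal markers only Pecam1 was measured, at 7.97 and 8.05.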

How the data were processed

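The deposited table holds the authors' log2 levels of 45101 probe sets in 2 arrays. Per the submitters' processing notes they were made with GCRMA. Its version, settings and any companion arrays were not given in the sources used here. The log2 scale was read from the values (0.53 to 16.91, medians 3.47 in fl/wt and 3.50 in fl/fl). The platform annotation paired 34958 probe sets with 1 symbol, 932 with several and 9211 with none. All 10 member symbols matched RefSeq (GRCm38.p6) by Entrez identifier. No genome build is named for the values, so probe sets have no coordinates.

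Measured meant log2 5 or more in at least 1 array, with lower values set to 5. A gene was read by its probe set of highest mean. With 1 array per genotype a call was a fold of 1.5, or 0.25 on the log2 scale, with no p-value. Every member probe set is accounted for. Of each list other than the cell markers up to 4 genes of largest difference were named, besides any past 1.5-fold. In the cell marker lists only some of those genes were named. Other named genes were chosen after their values were seen: Foxp3, Itgam, Itga2b, Vcam1, Cdh1, Madcam1, Fn1, Vtn, Slfn2, S100a8, S100a9, Mpo, and the platelet and dendritic markers under log2 5. Likeness of pattern was not ranked, since 2 arrays give a single difference. Members and lists were chosen with earlier results of these data known. Other floors, an added constant, 3 other scalings and other probe set choices were tried as alternatives; running them on the gene lists, and the median of measured probe sets, were chosen after seeing the data. The 1.5-fold rule was tested on simulated data, with shifts well past 1.5-fold and much larger than any integrin difference. The rule of 0.25 was not tested. Python 3.11.15, pandas 2.3.3 and statsmodels 0.14.6 were used.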

Additional observations from a re-analysis of the deposited data

How the results depend on the processing

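Counts of integrin probe sets past 1.5-fold and past 0.25 were 0 under each of 8 alternatives: floors of log2 4 and 6, no filter or floor, 32 added on the linear scale, median centring, quantile normalisation, loess, and no shared-suffix probe sets. The median over integrin probe sets ran from -0.035 (median centring) to 0.0055 (no filter or floor), so its sign is not settled. Median centring moved the median of all measured probe sets by -0.031. Under it 2 genes were higher in fl/fl, in place of 4; the other settings gave 3 to 6. Partners were ordered in 8 of 8 pairs by the brightest probe sets alone, by construction, in place of 4; a floor of log2 6 gave 6, leaving out shared-suffix probe sets 5, and the other settings 4. Of 100 gene values under alternatives, 10 had the opposite sign, over 6 genes. 1 moved beyond 0.14, the SD of differences between probe sets of 1 gene: Itga4, which was 0.017 as the median of all its probe sets. That setting also lets in a probe set under log2 5; over measured probe sets alone, an alternative chosen after seeing the data, the Itga4 median was -0.054. Itgb8 (0.17 to 0.21), Itgb3 (0.048 to 0.10), Itgav (-0.12 to -0.063) and Itgb7 (-0.040 to -0.0048) kept their signs. Many of the 100 values could not move, so their count is no measure of stability. Each brightest probe set lay well above log2 6, so other floors and no filter returned the main value for every gene. Itgb8 and Itgb7 have 1 probe set each, so leaving out shared suffixes and taking medians could not change them either. No paired analysis was possible because each genotype has 1 array.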
